A study of Equus caballus with 37 samples.

Results

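HIPK1 (ENSECAG00000015193) and AKAP11 (ENSECAG00000021005) were followed in equine blood as 2 of the 26991 genes in the count table, each found by the Ensembl identifier that the study prints for its symbol. HIPK1 encodes homeodomain-interacting protein kinase 1, a serine/threonine kinase of the nucleus that phosphorylates transcription factors and their partners, such as p53 and DAXX. AKAP11, also called AKAP220, encodes an A-kinase anchoring protein. Such scaffolds bind the regulatory subunits of protein kinase A, the main effector of cyclic AMP, and so hold the kinase at set places in the cell. AKAP11 also binds glycogen synthase kinase-3 and protein phosphatase 1, and it anchors kinase activity without being a kinase itself.

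Jugular blood of Arabian horses from a single stud was sequenced in 37 libraries from 4 periods. Untrained horses (T0, n = 6) were sampled in October at 2.5 years of age, except T0 replicate 2, which was labelled 3 years. Horses in race training were sampled at 3 years, after slow canter work in March (T1, n = 12), after intense gallop work in May (T2, n = 11) and at the close of the racing season in October (T3, n = 8). Mares gave 2 of the T0 libraries and 5 of those of T1, and 4 libraries each in T2 and T3, and stallions gave the others. Every sample was drawn before that day's training. T0 differed from T1 and T2 in age and season as well as in training, and T0 from T3 in age as well as in training, so these cannot be told apart. T1, T2 and T3 were sampled in different months, so training, season and elapsed time cannot be told apart among them either. Trained horses were sampled repeatedly, but the labels name no horse. Numbers in the sample descriptions run in parallel, with the same sexes, in T1, T2 and T3 and may mark horses, but the labels do not say so and the numbers were not used. The libraries were therefore compared as independent samples, and p-values measure the spread between libraries, some of which share a horse. In whole blood, fewer cells of a type and less RNA per cell cannot be told apart. Defining markers of blood cells were not analysed here, because 0 of the 85 symbols listed for cell types and kinase pathways could be paired with an identifier.

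Levels are given as CPM, the counts of a gene per 1000000 counts of its library over the 12025 genes left by the filter on low counts, after scaling with the TMM factor, a number per library that corrects for differences in RNA composition. The totals ran from 3810631 to 14932603 counts with a median of 10611594, at which 1 CPM stands for about 11 reads. HIPK1 had 37 to 2287 counts per library and AKAP11 had 8 to 1000. In 5 libraries of T1 (replicates 1, 2, 3, 4 and 11) the TMM factor was 0.410 to 0.696, while it was 0.922 to 1.14 in the other 7 libraries of T1 and 0.949 to 1.25 in the other periods. The study lists read statistics by sample number. If its order is that of the labels, the same 5 libraries had the lowest shares of uniquely mapped reads in T1. On the same order, replicates 1, 2, 3 and 4 were the only T1 libraries of sequencing pool 1, and replicate 11 was in pool 4. Pool 1 also held T2 and T3 libraries, whose factors were not low, while T0 libraries were in pools 3 and 4 alone. The part of alignment or pool in the low factors was not tested. These 5 libraries are set apart below wherever a value rests on them. T1 replicate 11 also had the smallest total.

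Both genes were at a low level in the first training periods and at a high level in untrained horses and at the season's end. HIPK1 had a mean of 67.5 ± 11.3 CPM in untrained horses (SD, n = 6) and of 17.9 ± 4.07 CPM after slow canter (SD, n = 12). Its mean was 25.4 ± 11.7 CPM after gallop (SD, n = 11) and 88.7 ± 34.0 CPM at the season's end (SD, n = 8). AKAP11 had 39.1 ± 5.22 CPM in untrained horses (SD, n = 6) and 14.4 ± 6.52 CPM after slow canter (SD, n = 12), followed by 20.3 ± 5.63 CPM after gallop (SD, n = 11) and 40.6 ± 11.5 CPM at the season's end (SD, n = 8). The order of the means was the same for both genes, with T1 lowest, then T2, T0 and T3. The neighbours T1 and T2 did not pass the test of a difference, nor did the neighbours T0 and T3, whereas T2 and T0 did.

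**Figure D1:**
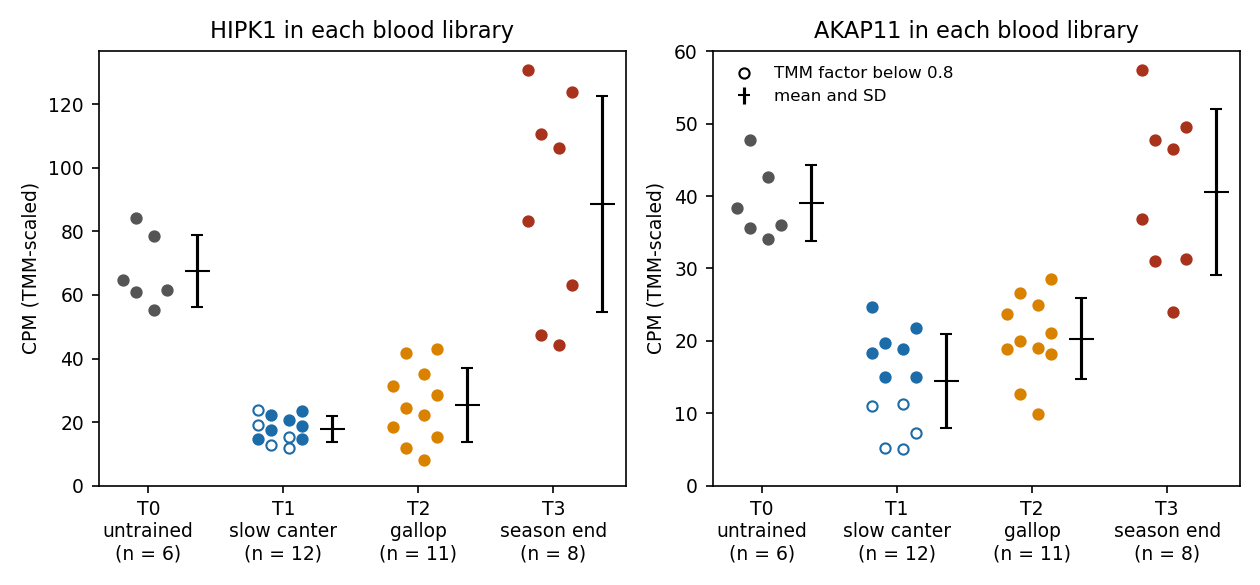
CPM of HIPK1 (left) and AKAP11 (right) on the y axis in each library, by period on the x axis; a point is a library, an open point is a T1 library with a TMM factor below 0.8, and bars are the mean and SD. No library of T1 or T2 reaches the lowest T0 library in either gene, and the open points are the 5 lowest of T1 in AKAP11 but are spread over the T1 range in HIPK1.

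The single libraries show where the periods touched. HIPK1 in T0 had a lowest value of 55.1 CPM, a median of 63.1 and a highest value of 84.2. In T1 it had a lowest value of 11.98 CPM, a median of 18.1 and a highest value of 23.7. The highest T1 library was thus below the lowest T0 library. HIPK1 in T2 had a lowest value of 8.18 CPM, a median of 24.4 and a highest value of 43.0. In T3 the lowest value was 44.4 CPM, the median 94.7 and the highest value 130.7. The T2 and T3 libraries did not overlap, although T2 replicate 4 at 43.0 CPM and T3 replicate 2 at 44.4 CPM were close to each other. T3 was widely spread, with replicates 1, 2 and 4 between 44.4 and 63.1 CPM and the other 5 libraries between 83.4 and 130.7 CPM.

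AKAP11 was spread in another way. In T0 it had a lowest value of 34.1 CPM, a median of 37.2 and a highest value of 47.8. In T1 the lowest value was 5.12 CPM, the median 15.0 and the highest value 24.6. All 12 libraries of T1 lay below those of T0. In T2 AKAP11 had a lowest value of 9.91 CPM, a median of 19.98 and a highest value of 28.5. In T3 the lowest value was 23.98 CPM, the median 41.7 and the highest value 57.5. T3 replicate 2 at 23.98 CPM overlapped with T1 and T2, and the other 7 of 8 libraries of T3 lay above every library of T1 and T2.

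Relative to its mean, HIPK1 varied most in T2, where the coefficient of variation was 45.9%, against 16.8% in T0, 22.7% in T1 and 38.4% in T3. AKAP11 varied most in T1, at 45.1%, against 13.4% in T0, 27.7% in T2 and 28.2% in T3. The T1 value of AKAP11 moved with the TMM factor. In the 5 libraries with a factor below 0.8 AKAP11 had 7.98 ± 3.03 CPM (SD, n = 5), and in the other 7 it had 19.1 ± 3.47 CPM (SD, n = 7), with no overlap. The share of all genes that separate in this way was not computed, so the gap is not read as particular to AKAP11. HIPK1 had 16.6 ± 4.82 CPM (SD, n = 5) and 18.9 ± 3.51 CPM (SD, n = 7) in the same libraries, which overlapped widely. The lowest AKAP11 value, 5.12 CPM in T1 replicate 11, rested on 8 reads, and its 95% Clopper-Pearson interval ran from 2.21 to 10.1 CPM. Intervals of this kind cover counting error only.

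A test for any difference among the 4 periods, over all libraries and 12025 genes, passed for both (edgeR quasi-likelihood F-test with Benjamini-Hochberg adjustment). The adjusted p was 1.8e-09 for HIPK1, which ranked 12th by p, and 5.0e-07 for AKAP11, which ranked 1499th. This is to be read against the 75.5% of genes with an adjusted p under the threshold of 0.05 in that test. The 6 pairs of periods were then tested with the libraries of each pair alone. To count as differentially expressed, a gene needed an adjusted p under 0.05 over all genes tested together with a change of 1.3-fold or more, up or down. With the same cut-offs the study printed far fewer such genes for T1 to T2, T2 to T3 and T0 to T3 than were called here. The reason was not tested. Standard errors (SE) are on the log2 scale.

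**Figure D2:**
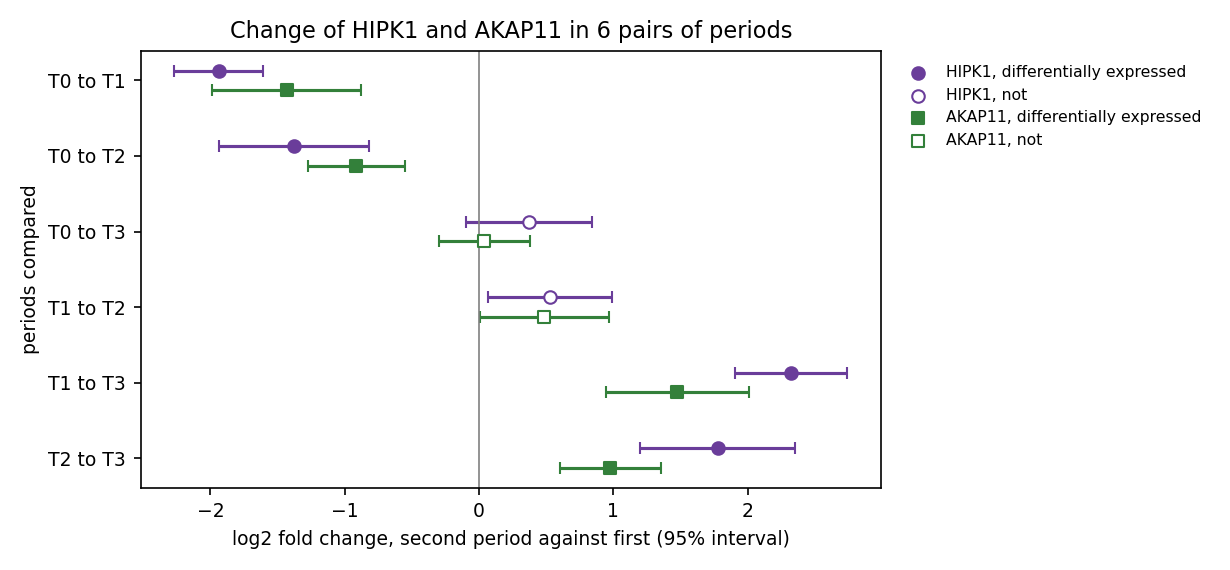
Log2 fold change of the second period against the first (x axis, 95% interval) for HIPK1 (circles) and AKAP11 (squares) in the 6 pairs of periods (y axis); filled symbols are differentially expressed. Both genes lie left of 0 from T0 to T1 and T2, right of 0 from T1 and T2 to T3, and are open from T0 to T3 and from T1 to T2.

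The comparison of T0 with T1 asks how blood of horses after slow canter differs from that of untrained horses. HIPK1 was 3.83-fold lower in T1 (log2 fold change -1.94, SE 0.16, edgeR adjusted p = 6.5e-07), with 12 of 12 T1 libraries below the lowest of T0. AKAP11 was 2.70-fold lower (log2 fold change -1.43, SE 0.27, edgeR adjusted p = 0.00036), again in 12 of 12 libraries. In this pair 58.1% of the genes tested were differentially expressed, 29.2% were so with a lower level in T1, and 13.9% were lower without overlap of the periods. By size of change HIPK1 was the 221st and AKAP11 the 863rd most reduced of 11544 genes. Without the 5 libraries of low TMM factor the log2 fold changes were -1.81 for HIPK1 and -1.004 for AKAP11 (edgeR adjusted p = 6.7e-07 and 1.6e-05). With the log2 TMM factor as a covariate they were -1.86 and -0.74 (edgeR adjusted p = 6.9e-06 and 0.0039), so that the fold of AKAP11 went from 2.70 to 1.67 and that of HIPK1 from 3.83 to 3.63.

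Between T0 and T2, after gallop work, the levels were again lower in the trained horses. HIPK1 was 2.60-fold lower in T2 (log2 fold change -1.38, SE 0.27, edgeR adjusted p = 0.0019) and AKAP11 was 1.88-fold lower (log2 fold change -0.91, SE 0.17, edgeR adjusted p = 0.0017). All 11 T2 libraries lay below the lowest of T0 for both genes, a pattern that 5.98% of genes showed. Of the genes tested in this pair, 33.4% were differentially expressed, 16.5% with a lower level in T2. HIPK1 was the 158th and AKAP11 the 659th most reduced of 11662 genes. Both calls were lost with the log2 TMM factor as a covariate, where the log2 fold change was -0.71 for HIPK1 (edgeR adjusted p = 0.097) and -0.55 for AKAP11 (edgeR adjusted p = 0.11). The factor itself was 1.17 to 1.24 in T0 and 0.949 to 1.21 in T2, and its part in the difference was not tested.

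Neither gene passed the threshold from slow canter to gallop, T1 to T2. HIPK1 was 1.44-fold higher in T2 (log2 fold change 0.53, SE 0.22, edgeR adjusted p = 0.068) and AKAP11 was 1.40-fold higher (log2 fold change 0.48, SE 0.23, edgeR adjusted p = 0.0999), while 32% of the genes tested were differentially expressed. The 95% intervals of these log2 fold changes ran from 0.07 to 0.99 for HIPK1 and from 0.004 to 0.97 for AKAP11. Both intervals, which are not adjusted for the number of genes tested, lie just above 0. The call changed with single libraries. HIPK1 passed without T1 replicate 12 (log2 fold change 0.60) and without T2 replicate 1 (0.63), 6 (0.61) or 7 (0.60), and AKAP11 passed without T1 replicate 6 (0.58). Without the 5 libraries of low TMM factor the log2 fold change of AKAP11 was 0.10 (edgeR adjusted p = 0.81) and that of HIPK1 was 0.44 (edgeR adjusted p = 0.46).

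HIPK1 and AKAP11 were both higher at the season's end than after slow canter. HIPK1 was 5.01-fold higher in T3 (log2 fold change 2.32, SE 0.20, edgeR adjusted p = 1.3e-07), with 8 of 8 T3 libraries above every T1 library. AKAP11 was 2.78-fold higher (log2 fold change 1.48, SE 0.26, edgeR adjusted p = 5.9e-05), with 7 of 8 T3 libraries above the highest of T1. The share of differentially expressed genes was 65% in this pair, 32.9% with a higher level in T3, and 12.1% of genes were higher without overlap. HIPK1 had the 137th and AKAP11 the 1026th highest log2 fold change of 11471 genes. Without the 5 libraries of low TMM factor the log2 fold changes were 2.22 and 1.08 (edgeR adjusted p = 1.9e-06 and 4.1e-05). With the log2 TMM factor as a covariate they were 2.19 and 0.80 (edgeR adjusted p = 6.5e-06 and 0.0010), the latter a fold of 1.74 in place of 2.78.

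The comparison of T2 with T3 covers the racing season, from May to October, so training and time of year cannot be told apart in it. HIPK1 rose 3.43-fold (log2 fold change 1.78, SE 0.28, edgeR adjusted p = 0.00013), and all 8 libraries of T3 lay above the highest of T2. AKAP11 rose 1.97-fold (log2 fold change 0.98, SE 0.18, edgeR adjusted p = 0.00038), with 7 of 8 libraries above the highest of T2. In this pair 44% of genes were differentially expressed, 22.5% with a higher level in T3, and 3.9% were higher without overlap. HIPK1 had the 99th and AKAP11 the 870th highest log2 fold change of 11599 genes. The study named both genes from these same libraries for T2 against T3 and for T0 against T3, so their direction there is not independent evidence. For HIPK1 from T2 to T3 it printed a smaller fold than the 3.43 found here, and the reason was not tested.

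T0 and T3 were not distinguished by either gene. The study listed HIPK1 as up-regulated in T3 against T0, a call not reached here in the main fit or in any of 11 alternatives. Over these alternatives, fitted with edgeR or DESeq2, the lowest adjusted p of HIPK1 was 0.051, close to the threshold. The study also named AKAP11 for T0 against T3, and that call was not reached here either (lowest edgeR adjusted p over the alternatives 0.35). Why the calls differ was not tested. HIPK1 had a log2 fold change of 0.37 in T3 (SE 0.22, edgeR adjusted p = 0.23), with a 95% interval from -0.10 to 0.84. AKAP11 had a log2 fold change of 0.04 (SE 0.16, edgeR adjusted p = 0.89), with an interval from -0.30 to 0.38. Differentially expressed genes made up 19.6% of those tested. The T3 libraries of both genes lay on either side of the T0 range, and for HIPK1 the 3 lowest T3 libraries (44.4, 47.5 and 63.1 CPM) lay among or below those of T0 while 4 of 8 (106.1 to 130.7 CPM) lay above its highest value. The intervals allow a difference up to 0.84 on the log2 scale for HIPK1, so the test does not show that the periods were alike. Each period enters 3 of the 6 pairs, so the pairs share libraries and are not independent of each other.

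The change of each gene was compared between mares and stallions with an interaction term in each of the 6 pairs. None of the 12 terms passed (edgeR adjusted p from 0.21 to 0.99998). Of the 11188 to 11696 genes tested per pair, 0 passed in every pair, so this outcome is not particular to the members. T0 held only 2 libraries of mares. The lowest unadjusted p of the 12 terms, 0.072, was that of AKAP11 from T1 to T2. There the mean log2 CPM of T2 was above that of T1 by 1.09 in mares and by 0.24 in stallions. Of the 5 libraries with a low TMM factor, 4 came from mares, and their part in this value was not tested. In T3 the 4 libraries of mares had 91.3 ± 42.1 CPM of HIPK1 (SD, n = 4) and those of stallions 86.1 ± 30.2 CPM (SD, n = 4). AKAP11 in the same libraries had 41.9 ± 12.99 CPM in mares (SD, n = 4) and 39.2 ± 11.5 CPM in stallions (SD, n = 4).

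The ratio of the HIPK1 count to the AKAP11 count within a library does not depend on how libraries are scaled. As the counts were not corrected for gene length, the ratio is read only between libraries and not as an excess of one transcript over the other. The ratio was narrow in untrained horses, at 1.72 ± 0.105 (SD, n = 6) in T0 with values from 1.55 to 1.84. After slow canter it was 1.59 ± 1.11 (SD, n = 12), after gallop 1.23 ± 0.360 (SD, n = 11) and at the season's end 2.13 ± 0.352 (SD, n = 8).

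**Figure D3:**
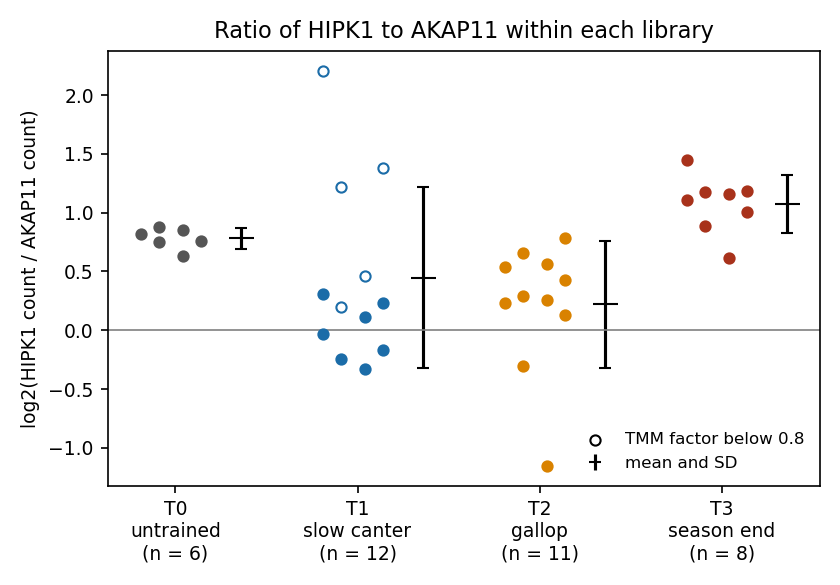
Log2 of the ratio of HIPK1 to AKAP11 counts within each library (y axis) by period (x axis); a point is a library, an open point is a T1 library with a TMM factor below 0.8, and bars are the mean and SD. T0 is the narrowest group, the open points are in the upper part of T1, and T2 has a single low library at -1.15.

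Differences of the mean log2 ratio were tested with two-sided permutation tests, exact wherever a period had under 10 libraries, and adjusted over the 6 pairs. From T0 to T2 the log2 ratio differed by -0.56 (exact permutation, adjusted p = 0.0034), with 11 of 11 T2 libraries below the T0 median. From T2 to T3 it differed by 0.86 (exact permutation, adjusted p = 0.00048), with 8 of 8 T3 libraries above the T2 median. In the mean, HIPK1 thus fell further than AKAP11 from T0 to T2 and rose further from T2 to T3, while the ratios of single libraries overlapped in both pairs. T2 replicate 7 had the lowest ratio, 0.449, from 89 counts of HIPK1 and 198 of AKAP11, with a 95% Clopper-Pearson interval from 0.346 to 0.580. Without this library the differences were -0.43 from T0 to T2 and 0.72 from T2 to T3, and both passed.

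From T0 to T3 the log2 ratio differed by 0.29 (exact permutation, adjusted p = 0.033), and it was above the T0 median in 7 of 8 libraries. This call did not hold when single libraries were left out. It was lost without any one of T0 replicates 2, 3, 4 and 6 or T3 replicates 3, 5, 6, 7 and 8, with differences from 0.24 to 0.30 (exact permutation, highest adjusted p = 0.063). The T1 pairs turned on the libraries of low TMM factor, in which the ratio was 2.42 ± 1.38 (SD, n = 5), against 1.001 ± 0.171 (SD, n = 7) in the other T1 libraries. The highest ratio was 4.62 in T1 replicate 11, from 37 and 8 counts, with an interval from 2.12 to 11.5.

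With all libraries the log2 ratio of T1 differed by -0.34 from T0 to T1 (exact permutation, adjusted p = 0.38), by -0.23 from T1 to T2 (permutation, adjusted p = 0.44) and by 0.63 from T1 to T3 (exact permutation, adjusted p = 0.063). The last of these passed without T1 replicate 2 (0.71), 3 (0.70) or 11 (0.79). Without the 5 libraries the difference was -0.80 from T0 to T1 (exact permutation, adjusted p = 0.0017) and 1.09 from T1 to T3 (exact permutation, adjusted p = 0.00093), both without overlap. From T1 to T2 it was then 0.24 (exact permutation, adjusted p = 0.32), of the opposite sign.

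Within a period, HIPK1 and AKAP11 tended to be high in the same libraries, though many other genes were closer to AKAP11. Over the deviations of all 37 libraries from their period means, r between the members was 0.52, and HIPK1 ranked 3004th of 9328 genes for AKAP11 while AKAP11 ranked 880th for HIPK1. The 12 relations computed, 3 in each of the 4 periods, set log2 CPM of the genes against each other and against the log2 TMM factor, and T1 entered with its 7 libraries of higher factor, since the 5 others formed a separate cluster. In T3 Pearson's r between the genes was 0.95 (n = 8, exact permutation, p = 0.00084, adjusted p = 0.0051) and Spearman's rho was 0.93 (exact permutation, p = 0.0022, adjusted p = 0.0067). Without the 2 libraries farthest from the median, r was 0.94. In T2 r was 0.71 (n = 11, permutation, p = 0.022, adjusted p = 0.038) and rho 0.89 (permutation, p = 0.00044, adjusted p = 0.0018), with r = 0.78 without the 2 farthest libraries.

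In T0 r was 0.94 (n = 6, exact permutation, p = 0.022, adjusted p = 0.038) and rho 0.83 (exact permutation, p = 0.058, adjusted p = 0.087), but r was 0.46 without the 2 libraries farthest out, so the relation in T0 rests on them. In T1 r was 0.58 (n = 7, exact permutation, p = 0.18, adjusted p = 0.20) and rho 0.61 (exact permutation, p = 0.17, adjusted p = 0.20), with r = 0.43 without the 2 farthest.

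**Figure D4:**
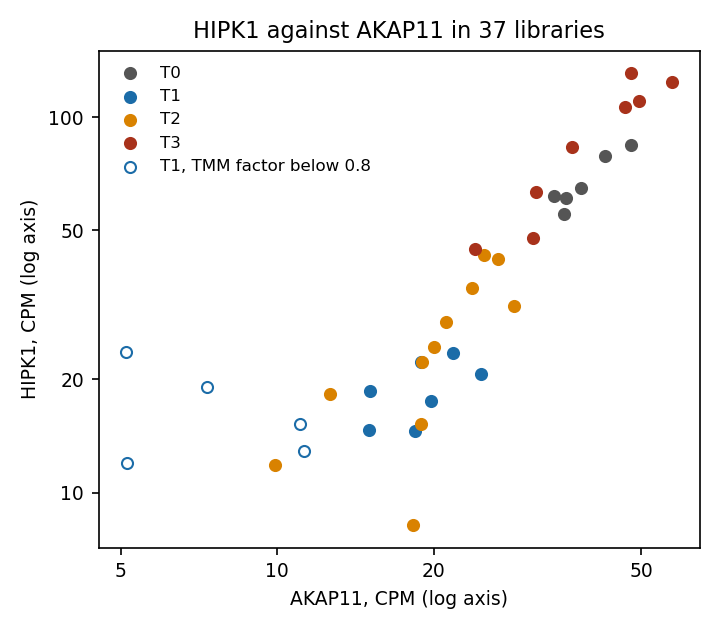
CPM of HIPK1 (y axis) against CPM of AKAP11 (x axis), both on log axes, in the 37 libraries, coloured by period; open points are the T1 libraries with a TMM factor below 0.8. The T0 and T3 libraries lie at the upper right, and the open points lie to the left of the other T1 points. T2 replicate 7 is the lowest point, at 8.18 CPM of HIPK1 and 18.2 CPM of AKAP11.

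The levels of both genes also moved with the TMM factor, a property of the whole library. In T2 the factor and HIPK1 had r = 0.90 (n = 11, permutation, p = 0.00060, adjusted p = 0.0051) and rho = 0.91 (permutation, p = 0.00034, adjusted p = 0.0018), with r = 0.82 without the 2 farthest libraries. For AKAP11 in T2 r was 0.81 (n = 11, permutation, p = 0.0038, adjusted p = 0.015) and rho 0.90 (permutation, p = 0.00038, adjusted p = 0.0018), with r = 0.93 without the 2 farthest. CPM itself is computed with this factor, and the part of the scaling in these relations was not tested.

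In T3 r with the factor was 0.72 for HIPK1 (n = 8, exact permutation, p = 0.0499, adjusted p = 0.075) and rho 0.67 (exact permutation, p = 0.083, adjusted p = 0.11), with r = 0.84 without the 2 farthest libraries. AKAP11 in T3 had r = 0.81 (n = 8, exact permutation, p = 0.018, adjusted p = 0.038) and rho = 0.76 (exact permutation, p = 0.037, adjusted p = 0.087), with r = 0.93 without the 2 farthest. In the 7 libraries of T1 AKAP11 had r = 0.85 (n = 7, exact permutation, p = 0.019, adjusted p = 0.038) and rho = 0.79 (exact permutation, p = 0.048, adjusted p = 0.087), and r was 0.59 without the 2 farthest. HIPK1 in T1 had r = 0.56 (n = 7, exact permutation, p = 0.18, adjusted p = 0.20) and rho = 0.39 (exact permutation, p = 0.40, adjusted p = 0.40), with r = 0.70 without the 2 farthest.

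T0 was the exception in sign. HIPK1 had r = -0.48 with the factor (n = 6, exact permutation, p = 0.32, adjusted p = 0.32) and rho = -0.60 (exact permutation, p = 0.24, adjusted p = 0.26), and AKAP11 had r = -0.67 (n = 6, exact permutation, p = 0.13, adjusted p = 0.17) and rho = -0.83 (exact permutation, p = 0.058, adjusted p = 0.087). Without the 2 farthest libraries these r were 0.004 and 0.07, and the T0 factors spanned only 1.17 to 1.24.

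**Figure D5:**
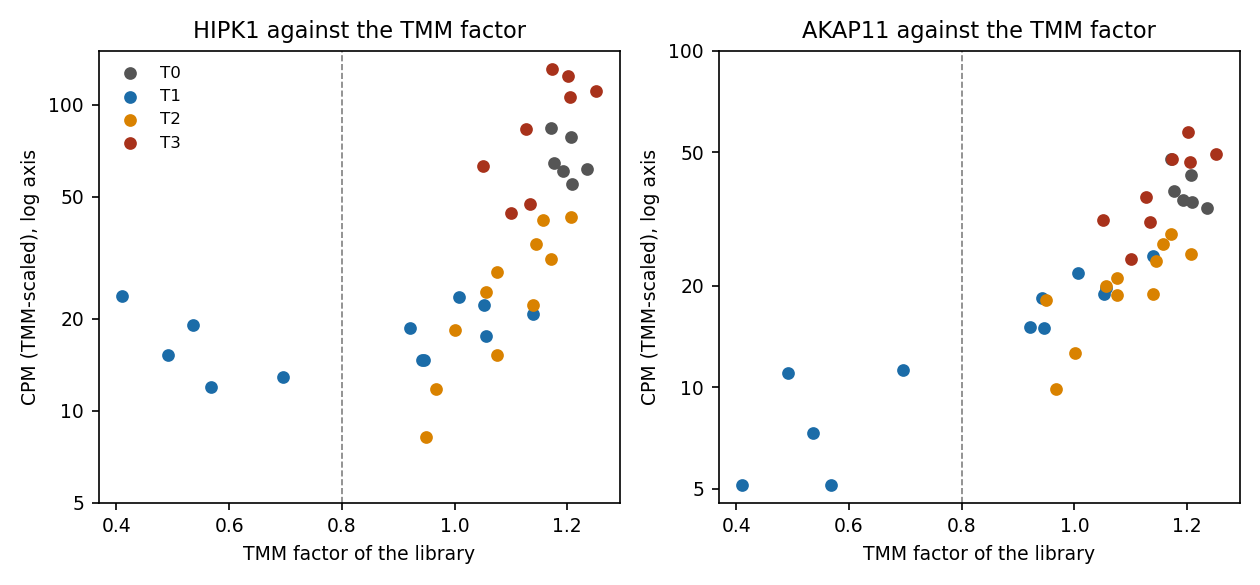
CPM of HIPK1 (left) and AKAP11 (right) on a log y axis against the TMM factor of the library (x axis), coloured by period; the dashed line marks a factor of 0.8. Within T2 and T3 the libraries with higher factors tend to have higher levels of both genes. The 5 T1 libraries left of the line lie below the other T1 libraries in AKAP11 but overlap with them in HIPK1.

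The genes whose pattern over the 37 libraries was most like that of each member were found by Pearson's r of log2 CPM among the 9328 genes that averaged 50 counts or more. For HIPK1 the nearest were ENSECAG00000015011 (r = 0.97) and FOXN2 (ENSECAG00000008390, r = 0.97), a forkhead transcription factor. For AKAP11 they were ENSECAG00000019201 (r = 0.98) and ENSECAG00000006127 (r = 0.98), for which no symbol was at hand. The members were less like each other, with r = 0.83, and AKAP11 ranked 605th among the genes nearest to HIPK1 while HIPK1 ranked 1413th among those nearest to AKAP11. Without the 5 libraries of low TMM factor r between the members was 0.93 over 32 libraries, and the ranks were 410 and 234. The nearest genes changed as well. In those 32 libraries ENSECAG00000017895 (r = 0.99) was nearest to HIPK1 and ENSECAG00000000767 (r = 0.98) to AKAP11, and none of the 4 genes named above was among the 5 nearest. These correlations are descriptions over libraries that share period and composition.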

How the data were processed

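RNA of whole blood from Tempus tubes was sequenced by the authors as single-end reads from a library kit that does not mark strand, so reads of overlapping antisense genes cannot be told apart. The authors removed adapters and low-quality reads with Flexbar, aligned with STAR to EquCab2 and estimated counts per Ensembl gene with RSEM. The deposited table holds these counts rounded to whole numbers, without normalization, and 3 smaller tables were not used. No libraries were duplicates (lowest chi-square per degree of freedom 14.5).

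The analysis was run in R 4.3.3 (edgeR 4.0.16). For each pair of periods, filterByExpr, TMM factors and the quasi-likelihood F-test with Benjamini-Hochberg adjustment over all genes were used, and SE was taken as the absolute log2 fold change over the root of F. Scripts were tested on simulated data. Log2 ratios and correlations were tested with permutations (scipy 1.17.1, 100000 resamples where not exact). Log2 CPM used a prior count of 2.

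The members, lists, thresholds and alternatives were chosen with earlier results of these data known. Named genes were both members, the genes most like each of them and 3 further kinase genes with an identifier in the study. Alternatives included a DESeq2 1.42.0 fit, scaling by RLE, no filter, one fit of all libraries, sex, the title number or the log2 TMM factor as a term, 2 genes over 1% of counts left out, libraries with a TMM factor below 0.8 left out, scaling to SDHA and GAPDH, thinning, glmTreat and leaving out each library. The sequencing pools entered no test, and gene positions and sequences were not used here.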

Additional observations from a re-analysis of the deposited data

How the results depend on the processing

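Of the 69 values that up to 12 alternatives per pair gave for the log2 fold changes of each gene, 67 of HIPK1 and 64 of AKAP11 kept their direction and their side of the threshold. The glmTreat fits have the log2 fold change of the main fit by construction, so only their call could change. The alternatives also share libraries, so the count is not one of independent checks. Apart from the replicate block, the exceptions were these, with edgeR's adjusted p. With the log2 TMM factor as a covariate the calls from T0 to T2 were lost (HIPK1 -0.71, p = 0.097, AKAP11 -0.55, p = 0.11), and AKAP11 from T1 to T2 reversed (-0.078, p = 0.98). With all libraries in one fit HIPK1 passed from T1 to T2 (0.51, p = 0.049). AKAP11 from T0 to T3 reversed when libraries were thinned to the smallest total (-0.082, p = 0.82). The log2 ratio without the libraries of low TMM factor passed from T0 to T1 (-0.80) and from T1 to T3 (1.09) and reversed from T1 to T2 (0.24). The causes were not tested.

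Leaving out single libraries gave log2 fold changes from 0.44 to 0.63 for HIPK1 and from 0.39 to 0.58 for AKAP11 from T1 to T2, and from -0.045 to 0.13 for AKAP11 from T0 to T3, where it reversed without T3 replicate 5 or 6. The log2 ratio ran from 0.24 to 0.36 from T0 to T3 and from 0.56 to 0.79 from T1 to T3. No call of a log2 fold change in the other pairs changed.

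Same-numbered libraries did not pair: correlations of their deviations over all genes had medians from 0.007 to 0.21, and in no pair of periods was every one above 0.1 or did every library correlate best with its own number. Above 0.1 were 7 of 11 numbers from T1 to T2 and 5 of 8 from T1 to T3, where 4 of 8 were best with their own. The numbers in the sample descriptions were not used as a block. Libraries with the same title number shared a sex for 6 of 11 numbers from T1 to T2, 5 of 8 from T1 to T3 and 3 of 8 from T2 to T3. The title number thus does not mark a horse, and a fit with it as a block is not a fit of paired horses. With the title number as a replicate block AKAP11 passed from T1 to T2 (0.64, edgeR adjusted p = 0.030) and reversed from T0 to T3 (-0.030, edgeR adjusted p = 0.91). In that fit 1447 genes were called from T0 to T3 in place of 2295.

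Counts of differentially expressed genes over all genes moved by over 1.5 times in these cases. With the log2 TMM factor as a covariate they were 2637 from T0 to T1 in place of 6708, 43 from T0 to T2 in place of 3900, 0 from T1 to T2 in place of 3584 (565 at an unadjusted p below 0.05), 4747 from T1 to T3 in place of 7452 and 3268 from T2 to T3 in place of 5107. Without the libraries of low TMM factor edgeR called 0 from T1 to T2 (1444 at an unadjusted p below 0.05), and no other tool was run on these 2 settings. One fit of all libraries gave 2113 from T0 to T2 and 717 from T0 to T3, and thinning gave 1487 from T0 to T3. The glmTreat test gave 668 from T0 to T2, 282 from T0 to T3, 1018 from T1 to T2 and 1933 from T2 to T3. Scaling to SDHA and GAPDH shifted the median log2 fold change of all genes by -0.19 from T0 to T1, -0.14 from T0 to T2 and 0.15 from T1 to T3. It took the share of calls that were higher in the second period from 49.8% to 38.8% from T0 to T1, from 50.7% to 21.8% from T0 to T2 and from 51.1% to 65.0% from T2 to T3. Both genes kept direction and call under it in all 6 pairs.

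Depth limits AKAP11 most in T1, where 8 to 80 reads stood behind it in the 5 libraries of low TMM factor. Libraries of low factor occur in T1 alone. Without them the factor was still 0.922 to 1.14 in T1 against 1.17 to 1.24 in T0, so period and factor cannot be told apart in that pair.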

Other observations

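The 3 other genes of kinases or kinase complexes with an identifier in the study, which it named from these libraries, differed among themselves. RICTOR, a subunit of the mTORC2 kinase complex, had 23.7 ± 3.41 CPM in T0 (SD, n = 6), 7.17 ± 2.20 CPM in T1 (SD, n = 12), 9.63 ± 4.42 CPM in T2 (SD, n = 11) and 34.2 ± 14.2 CPM in T3 (SD, n = 8). It was higher in T3 than in T2 with a log2 fold change of 1.81 (SE 0.27, edgeR adjusted p = 9.5e-05). Its pattern over the 37 libraries ranked 9th among the genes most like HIPK1 (r = 0.96) and 1950th among those most like AKAP11 (r = 0.78). Without the 5 T1 libraries of low TMM factor these ranks were 29 (r = 0.97) and 184 (r = 0.93), so the distance between them rests on those libraries. TAF1, the largest subunit of the general transcription factor TFIID, had 60.1 ± 6.47 CPM in T0 (SD, n = 6), 23.2 ± 10.6 CPM in T1 (SD, n = 12), 31.9 ± 10.5 CPM in T2 (SD, n = 11) and 75.8 ± 16.4 CPM in T3 (SD, n = 8). It was higher in T3 than in T2 with a log2 fold change of 1.23 (SE 0.19, edgeR adjusted p = 0.00011), and it ranked 227th among the genes most like AKAP11 (r = 0.93) and 701st among those most like HIPK1 (r = 0.82). Without the 5 libraries the order turned round, with ranks of 220 (r = 0.93) and 126 (r = 0.96). In T1 TAF1 had 12.9 ± 5.25 CPM in these libraries (SD, n = 5) and 30.6 ± 5.88 CPM in the other 7 (SD, n = 7), with no overlap, as for AKAP11. ACVR2A, an activin receptor with kinase activity, had 3.63 ± 1.10 CPM in T2 (SD, n = 11) and 4.83 ± 1.29 CPM in T3 (SD, n = 8), and its log2 fold change of 0.40 did not pass (SE 0.19, edgeR adjusted p = 0.081). SDHA and GAPDH served the study as qPCR reference genes. SDHA had log2 fold changes from -0.11 to 0.10 over the 6 pairs, and none passed (edgeR adjusted p from 0.47 to 0.95). GAPDH passed from T0 to T1, with a log2 fold change of 0.51 (SE 0.19, edgeR adjusted p = 0.025), and from T1 to T3, with -0.41 (SE 0.17, edgeR adjusted p = 0.042). From T2 to T3 it had -0.19 (SE 0.14, edgeR adjusted p = 0.26).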
